A study of Mus musculus with 36 samples.

Results

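Calreticulin and 5 other genes of the endoplasmic reticulum (ER) stress response, Calr, Hspa5, Hsp90b1, Ddit3, Atf4 and Xbp1, were examined for binding of the TATA-binding protein TBP in mouse embryonic stem (ES) cells. They are 6 of the 21900 protein-coding genes with coordinates in the RefSeq table used. The 6 genes were chosen from the TBP summit scores of the same lists that are described here, so their values are given as a description and no test was made. TBP was mapped by CUT&RUN, in which a nuclease tethered to an antibody cuts out the DNA around the bound protein, in the RT7 and RT10 ES cell lines. RT7 cells have the genotype R26CreERT2/+;Taf7flox/flox and RT10 cells R26CreERT2/+;Taf10flox/flox, so all 4 groups carry the ligand-dependent Cre recombinase on 1 Rosa26 allele. Each line received 4-hydroxytamoxifen (4-OHT), which activates the Cre and deletes the floxed gene, or its solvent ethanol (EtOH) from day 1 to day 3. All cells grew on gelatin in serum with leukemia inhibitory factor and the kinase inhibitors CHIR99021 and PD0325901.

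The series holds 36 libraries, of which 8 were made with the TBP antibody, 2 for each line and treatment. The values described are 4 deposited lists of TBP peak summits, 1 for each line and treatment, called against an IgG library. No replicate check of any difference between lists was therefore possible. The lists held 2666 summits in RT7 EtOH, 1379 in RT7 4-OHT, 3102 in RT10 EtOH and 2188 in RT10 4-OHT, and the read depth behind them is unknown. The score of a summit is read here as the −log10 of its q-value, a unit that no header states. List medians were between 5.52 and 5.95, and the score places a summit within its own list only. The IgG controls titled RT7 EtOH and RT10 4-OHT carry the opposite treatment in another label field, and the titles, which match the peak names, were followed. Of the pluripotency genes Pou5f1, Sox2 and Nanog, Nanog had a summit in all 4 lists, Sox2 in RT10 EtOH alone and Pou5f1 in none. RNA levels and the binding of TAF7 and TAF10 were not analysed here, so the loss of the deleted subunit was not checked.

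When unfolded proteins accumulate in the ER, the sensors IRE1, PERK and ATF6 start a transcriptional programme that raises the folding capacity of the organelle. Calr encodes calreticulin, a calcium-binding lectin chaperone of glycoproteins, Hspa5 the HSP70-type chaperone BiP, and Hsp90b1 the HSP90-type chaperone GRP94. Xbp1, Atf4 and Ddit3 (CHOP) encode transcription factors of the response, of which XBP1 arises through splicing by IRE1, ATF4 through translation favoured when eIF2α is phosphorylated by PERK or related kinases, and CHOP through ATF4. ATF6 and XBP1 act on chaperone promoters through the ER stress response element, in which the letters CCAAT and CCACG lie 9 bases apart. TBP, as part of TFIID together with its TBP-associated factors such as TAF7 and TAF10, takes part in placing RNA polymerase II at gene starts.

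The promoters of the 4 genes with a TBP summit are shown because the summits lie in or beside them. All 6 genes matched the RefSeq promoter table (build GRCm38.p6, the assembly of mm10). The sequences are the 250 bases before the annotated start, 5′ to 3′ on the strand of the gene, with capitals on either strand for the CCAAT box, the GC box GGGCGG, the TATA-type match TATATAA and the CCACG of an ER stress response element. Calr lies at chr8:84846932-84847181 (minus strand), Hspa5 at chr2:34771840-34772089 (plus), Hsp90b1 at chr10:86705445-86705694 (minus) and Ddit3 at chr10:127290543-127290792 (plus).
Calr: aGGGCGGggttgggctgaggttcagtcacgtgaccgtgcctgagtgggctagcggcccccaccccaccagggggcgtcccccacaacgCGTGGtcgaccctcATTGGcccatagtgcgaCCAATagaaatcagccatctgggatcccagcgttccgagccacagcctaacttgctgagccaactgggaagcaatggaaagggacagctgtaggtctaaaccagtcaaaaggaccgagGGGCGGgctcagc
Hspa5: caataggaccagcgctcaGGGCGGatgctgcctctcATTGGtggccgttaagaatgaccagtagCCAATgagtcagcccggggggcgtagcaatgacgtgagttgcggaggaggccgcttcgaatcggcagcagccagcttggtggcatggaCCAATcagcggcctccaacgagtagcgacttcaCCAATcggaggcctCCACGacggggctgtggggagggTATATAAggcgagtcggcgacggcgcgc
Hsp90b1: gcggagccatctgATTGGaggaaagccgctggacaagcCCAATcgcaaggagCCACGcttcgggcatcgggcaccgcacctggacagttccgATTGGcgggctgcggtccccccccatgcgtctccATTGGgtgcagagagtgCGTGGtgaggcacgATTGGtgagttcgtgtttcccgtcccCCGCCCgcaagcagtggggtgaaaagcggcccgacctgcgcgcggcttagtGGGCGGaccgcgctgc
Ddit3: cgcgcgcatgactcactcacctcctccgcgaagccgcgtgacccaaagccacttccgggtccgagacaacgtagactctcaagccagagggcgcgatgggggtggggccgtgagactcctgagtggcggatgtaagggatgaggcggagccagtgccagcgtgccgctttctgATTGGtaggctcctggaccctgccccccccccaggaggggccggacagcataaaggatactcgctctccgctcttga

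Positions count the annotated start as 1, with negative numbers before it. The ER stress response element was matched at bases -65 to -47 of Hspa5, on the opposite strand at -162 to -144 of Calr, and in Hsp90b1 at -212 to -194 and, on the opposite strand, at -107 to -89. Ddit3, Atf4 and Xbp1 had no match to these letters in the 300 bases searched, which reach from 250 bases before the start to 50 from it. Among 21263 promoter sequences of protein-coding genes 0.141% held the element as spelled here. The chaperone promoters are textbook carriers of this element, so its presence is a property of the genes chosen.

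A TATA-type match was present in 2 of the 4 bound promoters. Hspa5 held TATATAA at -28 to -22, a spelling searched after its sequence had been seen and found in 3.13% of promoters. Calr held TATAAA, found in 12.6% of promoters, at 34 to 39, on the downstream side of the annotated start. The 30 bases around it (chr8:84846882-84846911, minus strand) are printed with the match in capitals.
Calr: agaggtaggtgaaTATAAAttgaagcggcg
No TATAAA or TATATAA was in the window of Hsp90b1, Ddit3, Atf4 or Xbp1. CCAAT on either strand, found in 38.2% of promoters, occurred in 5 of the 6 genes, without Xbp1.

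TBP summits lay within 500 bp of an end of Calr, Hspa5, Hsp90b1 and Ddit3 in both EtOH lists, and of Calr and Hspa5 in both 4-OHT lists. Atf4 and Xbp1 had none in any list. The count was thus 4 of 6 in each EtOH list and 2 of 6 in each 4-OHT list, where 5.31% of protein-coding genes had a summit in RT7 EtOH, 2.73% in RT7 4-OHT, 5.95% in RT10 EtOH and 3.85% in RT10 4-OHT. As the genes were chosen for their summits, nothing is read from that distance. The farthest summit counted lay 293 bp from a gene end (Hsp90b1 in RT10 EtOH). The nearest summit not counted lay 604 bp from the start of Hspa5 in RT10 EtOH, with a score of 2.15, beside the counted one. The next was 1418 bp from the start of Ddit3 in RT10 EtOH, with a score of 3.75. For a gene and list with no counted summit, the nearest lay 73425 bp away (Hsp90b1 in RT7 4-OHT). A missing summit says that no peak was called, not that TBP was absent.

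Calr had one of the highest-scoring summits of every list. Its scores were 137.7 in RT7 EtOH, 118.9 in RT7 4-OHT, 143.9 in RT10 EtOH and 106.9 in RT10 4-OHT, at ranks 4, 3, 3 and 6. In each list the first 2 ranks were mitochondrial DNA, so at most 3 nuclear summits scored higher. Among protein-coding genes ranked by their best summit, Calr held place 3 of 1162 in RT7 EtOH, 1 of 597 in RT7 4-OHT, 1 of 1302 in RT10 EtOH and 4 of 844 in RT10 4-OHT. In RT7 EtOH the single nuclear summit above it was the one shared by the core histone genes H2ac6 and H2bc4.

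The Calr summit stood alone at the promoter. It lay 62, 98, 67 and 112 bp upstream of the start in RT7 EtOH, RT7 4-OHT, RT10 EtOH and RT10 4-OHT. The next summit on the chromosome was 9459 bp away in RT7 EtOH, with a score of 3.52, and between 46796 and 68462 bp away in the other 3 lists. The end of 1 other gene was within 500 bp of the summit, that of the long noncoding RNA gene 1700122E12Rik (chromosome 8, 84847147 to 84856665), so a summit there cannot be assigned to Calr alone. All 4 summits fell between the ER stress response element and the TATAAA match of the printed sequences, whose centre was 98 to 148 bp downstream of them.

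**Figure D1:**
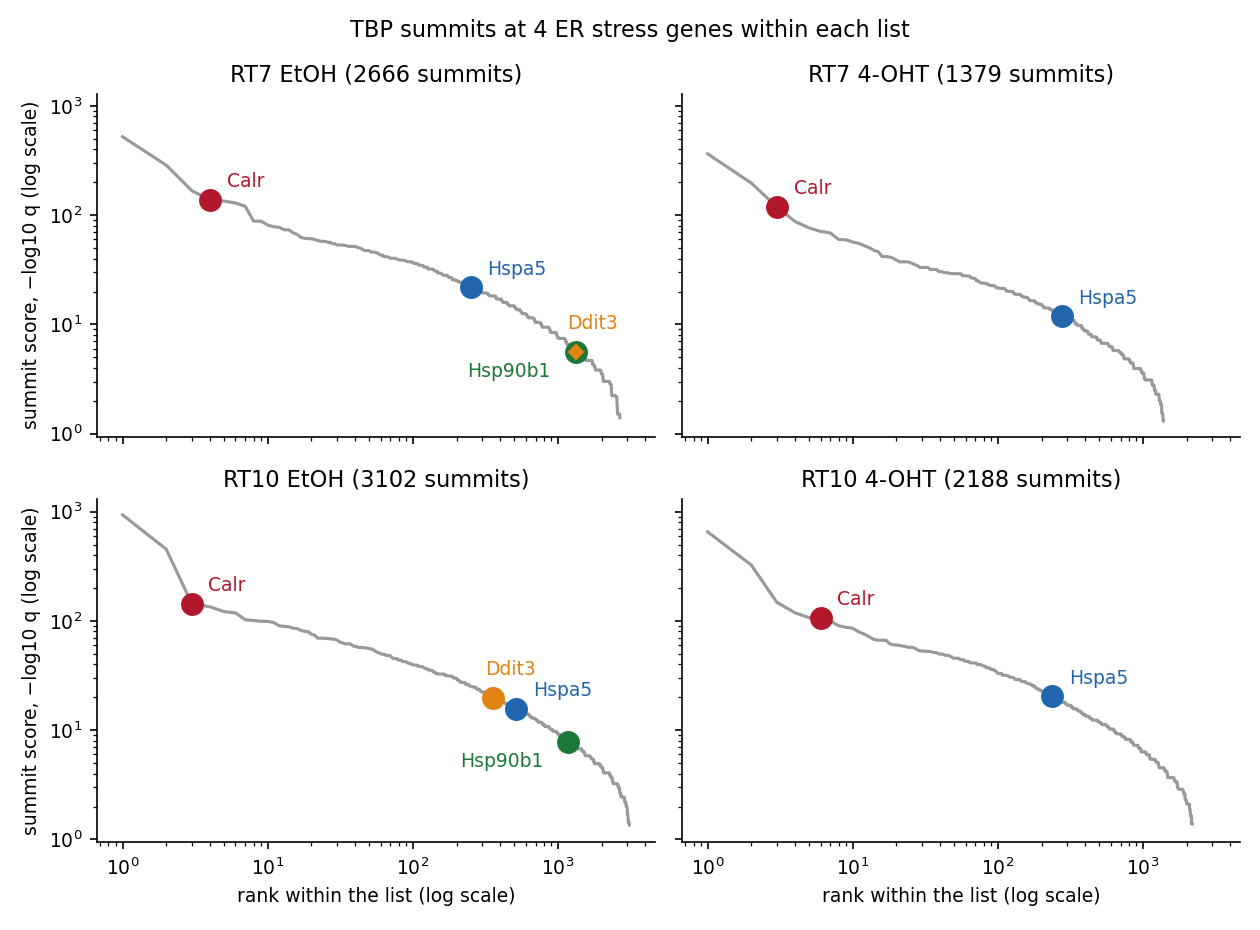
Score of every TBP summit (y axis, −log10 q, log scale) against its rank within the list (x axis, log scale) for the 4 lists, with the summits of Calr, Hspa5, Hsp90b1 and Ddit3 marked. Calr sits at ranks 3 to 6 in all 4 panels, Hspa5 at 236 to 515, and Hsp90b1 and Ddit3 appear in the EtOH panels only, tied in RT7 EtOH (diamond on circle).

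The 2 Calr summits of each treatment lay close together in the 2 lines, 5 bp apart in EtOH. The 4-OHT summit was 36 bp further upstream than the EtOH summit in RT7 and 45 bp in RT10. Such distances were common. At protein-coding gene ends with a single annotated strand, EtOH and 4-OHT summits within 250 bp of each other were a median of 53 bp apart in RT7 (quartiles 24 to 98.5 bp, 259 pairs) and 58 bp in RT10 (27 to 112 bp, 355 pairs). The 4-OHT summit was the more upstream of the pair in 45.9% and 52.4% of them, so the Calr shifts lay inside the usual range in size and in either line went the way of about as many pairs as not.

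Hspa5 was bound in all 4 lists at a lower rank than Calr. Its scores were 21.8 in RT7 EtOH, 11.9 in RT7 4-OHT, 15.65 in RT10 EtOH and 20.3 in RT10 4-OHT, each above the upper quartile of its list (10.18 to 11.65). The ranks were 251 of 2666, 275 of 1379, 515 of 3102 and 236 of 2188. The percentile within the list, with 100 for the top summit, was 90.6, 80.1, 83.4 and 89.3, so the EtOH list gave the higher percentile in RT7 and the 4-OHT list in RT10. With 1 list per group these orders have no replicate check.

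The 4 Hspa5 summits lay within 125 to 158 bp upstream of the start, 11 bp apart between treatments in RT7 and 5 bp in RT10. These distances were below the lower quartiles for all such pairs, 24 and 27 bp. No other gene had an end within 500 bp of the Hspa5 summits. The centre of TATATAA lay 100 to 133 bp and that of the ER stress response element 69 to 102 bp downstream of the summits. RT10 EtOH held a further summit 451 bp upstream of the first, with a score of 2.15.

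Hsp90b1 had a summit in the EtOH lists alone. The scores were 5.57 in RT7 EtOH and 7.73 in RT10 EtOH, at percentiles 50.4 and 62.1, near the middle of both lists. The score of 5.57 was shared by 150 summits of RT7 EtOH, and that of 7.73 by 78 of RT10 EtOH. The summits lay 217 and 293 bp upstream of the start and 76 bp from each other, in the interval between Hsp90b1 and Ttc41. The nearer end of this protein-coding gene, at 86705811 of chromosome 10, is within 500 bp of both. Both summits (86705661 and 86705737) lay closer to that end than to the start of Hsp90b1 (86705444), so they cannot be assigned to Hsp90b1 alone. In the 4-OHT lists the nearest summits to an end of Hsp90b1 were 73425 bp away in RT7 and 1151086 bp in RT10.

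**Figure D2:**
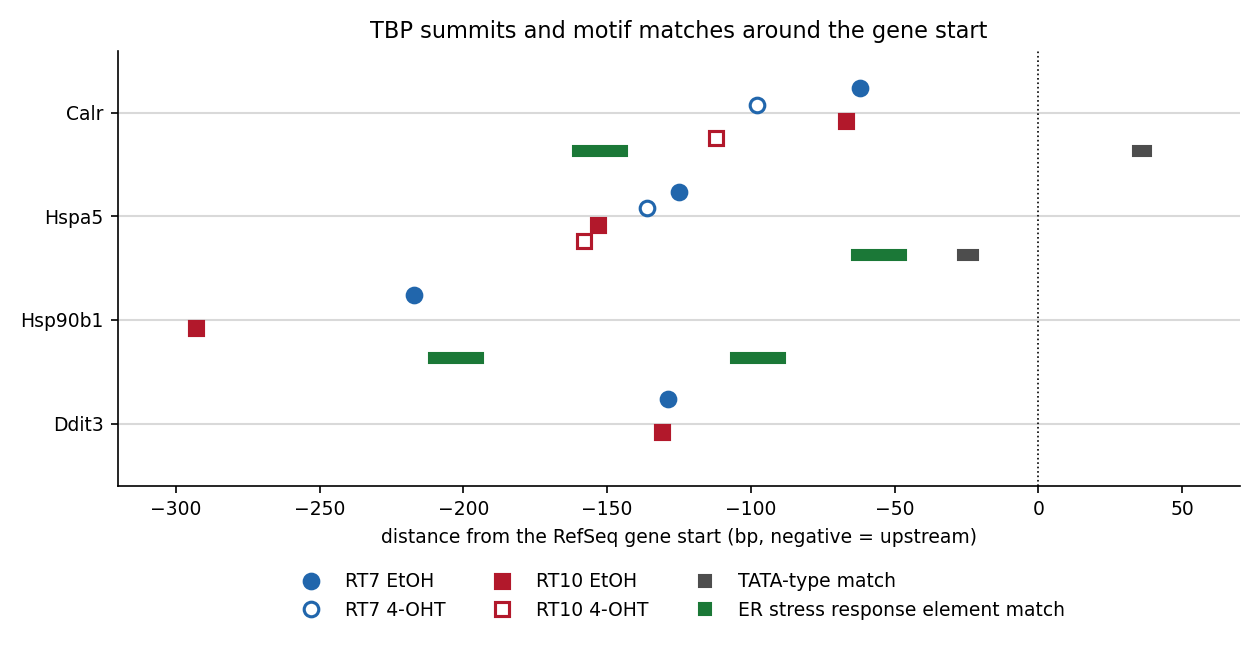
Position of the TBP summit of each list (circles RT7, squares RT10, filled EtOH, open 4-OHT) at Calr, Hspa5, Hsp90b1 and Ddit3, as distance from the RefSeq gene start in bp on the strand of the gene, with bars for matches of a TATA type and of the ER stress response element. All summits lie upstream, from 62 bp (Calr, RT7 EtOH) to 293 bp (Hsp90b1, RT10 EtOH), and open symbols are present for Calr and Hspa5 only.

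Ddit3 also had a summit in both EtOH lists and in neither 4-OHT list. Its score was 5.57 in RT7 EtOH, tied with Hsp90b1, and 19.9 in RT10 EtOH, at percentiles 50.4 and 88.5. It thus ranked below Hspa5 in RT7 EtOH and above it in RT10 EtOH (rank 358 against 515). The 2 summits were 2 bp apart, 129 and 131 bp upstream of the start. The position also lies inside the protein-coding gene Mbd6 (chromosome 10, 127281956 to 127290869), within 500 bp of an end of it. That annotated end overlaps the first bases of Ddit3, so a summit there cannot be assigned to Ddit3 alone. The nearest 4-OHT summits were 227311 bp from an end of Ddit3 in RT7 and 76576 bp in RT10.

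Ddit3 and Hsp90b1 belong to a group of 204 protein-coding genes with a summit in both EtOH lists and no 4-OHT summit within 500 bp of either end or 250 bp of the EtOH summit in either line. These were 23.2% of the 878 genes bound in both EtOH lists, and 48.4% had a summit in both 4-OHT lists, as Calr and Hspa5 did. Ordered by their RT10 EtOH summit, Ddit3, Mbd6 and Zfp143 shared the first place among the 204. In the order of RT7 EtOH, Ddit3 and Hsp90b1 shared place 75 with other genes, 16 in all, and in RT10 EtOH Hsp90b1 was at place 53, with 6 genes tied.

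The share of EtOH summits that a 4-OHT list also held was larger at higher EtOH scores, so the 4 genes were set beside summits of similar score. An EtOH summit was counted as kept when a 4-OHT summit lay within 250 bp. Of protein-coding genes bound in EtOH, 43.2% were kept in RT7 and 49.4% in RT10, and of the 4 bound ER stress genes 2 were kept in each line. By deciles of the score, the share of summits at protein-coding gene ends that were kept ran from 14.9% in the lowest decile of RT7 to 96% in the highest, and from 21.2% to 96.5% in RT10.

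Among summits scoring within 1.25-fold of Calr, 5 of 5 in RT7 and 4 of 4 in RT10 were kept, Calr included. With so few summits the exact 95% intervals were wide, 47.8 to 100% in RT7 and 39.8 to 100% in RT10. Around Hspa5 82 of 94 were kept in RT7 (87.2%, exact 95% interval 78.8 to 93.2) and 106 of 137 in RT10 (77.4%, 69.4 to 84.1). Around the shared score of Hsp90b1 and Ddit3 in RT7 EtOH 55 of 224 were kept (24.6%, 19.1 to 30.7), so a missing 4-OHT summit was the common outcome there. In RT10, 93 of 193 were kept around Hsp90b1 (48.2%, 41 to 55.5). Around Ddit3 in RT10, 89 of 106 were kept (84%, 75.6 to 90.4), and Ddit3 was among the 17 that were not. The intervals are Clopper-Pearson intervals and cover counting error only.

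**Figure D3:**
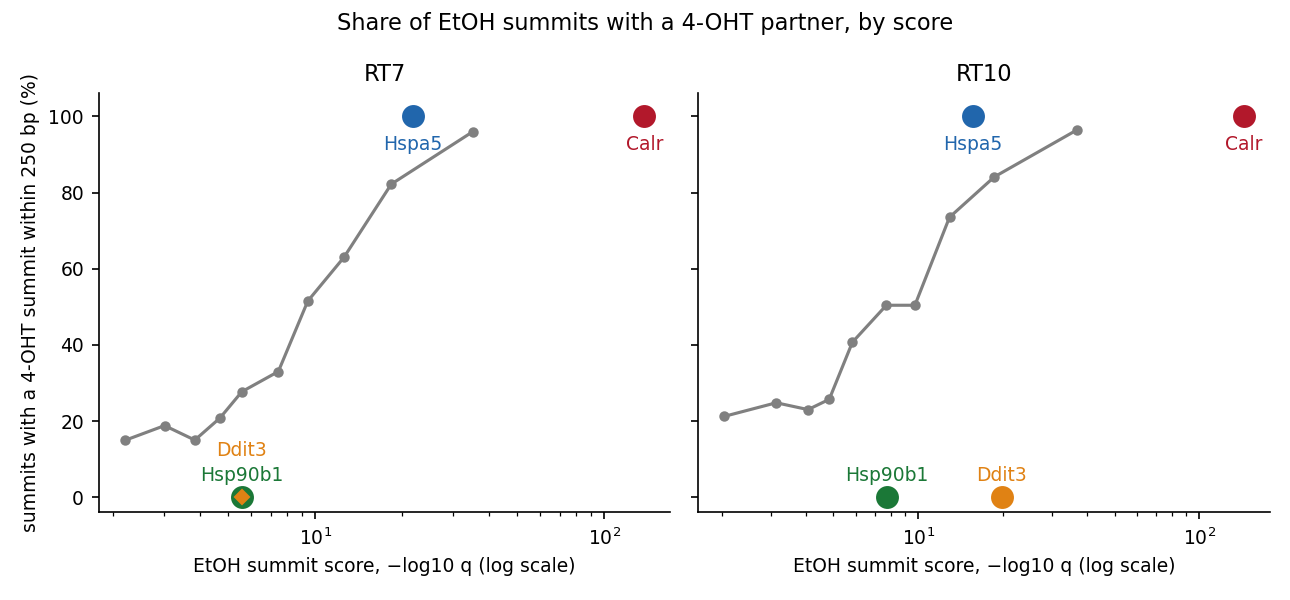
Share of EtOH summits at protein-coding gene ends with a 4-OHT summit within 250 bp (y axis, percent) against the median EtOH score of each decile (x axis, −log10 q, log scale), for RT7 and RT10 (grey). Coloured points place the ER stress genes at their EtOH score, at 100 when the gene had a 4-OHT summit and at 0 when it had none. In RT10 Ddit3 lies at 0 with a score of 19.9, near the decile in which 84.1% were kept.

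Atf4 (chromosome 15, 80255184 to 80257545) had no summit nearer than 139615 bp in any list. The nearest were 139770 bp away in RT7 EtOH, 171954 bp in RT7 4-OHT, 171932 bp in RT10 EtOH and 139615 bp in RT10 4-OHT. Their scores were between 4.53 and 6.24. Xbp1 (chromosome 11, 5520641 to 5525993) was 236327 bp from the nearest summit in RT7 EtOH, 889934 bp in RT7 4-OHT, 421484 bp in RT10 EtOH and 176825 bp in RT10 4-OHT, with scores of 2.01 to 4.83. Both genes thus lay in stretches without a called TBP summit in either line and treatment.

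The order of the genes by score was Calr, Hspa5, then Hsp90b1 and Ddit3 tied in RT7 EtOH, and Calr, Ddit3, Hspa5 and Hsp90b1 in RT10 EtOH. In both 4-OHT lists it was Calr before Hspa5. The gap between Calr and the next gene was over 100 score units in both EtOH lists and the order of the others has no replicate error to be set against.

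Genes with the most similar pattern were found by the largest difference in percentile over the 4 lists. For Calr they were H2ac6 and H2bc4 (0.137 percentile points) and Med16 (0.218), a Mediator subunit gene. Hspa5 was nearest to Itpr1 (3.30), an ER calcium channel, Vamp1 (3.98) and Calm3 (4.43), a calmodulin gene. Hsp90b1 had the same percentiles as Mepce (0), and was followed by Ctsl (1.90), a lysosomal protease, and Creld1 (5.38). Ddit3 was nearest to Nabp1 (3.68), Impa2 (6.94) and Rps21 (7.01), all 3 of which also lacked a 4-OHT summit. A missing summit counted as percentile 0, so this shared lack largely follows from the matching. Likeness over 4 lists with many tied scores describes these lists only.

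The members were then set beside 75 other genes of ER protein folding and the integrated stress response, in 8 groups by role. Of these, 18 had a summit in RT7 EtOH (24%, exact 95% interval 14.9 to 35.3) and 5 in RT7 4-OHT (6.67%, interval 2.2 to 14.9). In RT10 15 had one in EtOH (20%, interval 11.6 to 30.8) and 9 in 4-OHT (12%, interval 5.64 to 21.6). The shares over all protein-coding genes are those given above, from 2.73% to 5.95%, and include genes not expressed in ES cells. At least 1 list held a summit for 21 of the 75, against 7.83% of all protein-coding genes, and all 4 lists for 5, against 1.94%. In RT7 5 of the 18 were kept (27.8%, 9.69 to 53.5) and in RT10 8 of the 15 (53.3%, 26.6 to 78.7), beside 43.2% and 49.4% of all bound protein-coding genes. With so few genes the intervals are wide. They cover counting error only, not the choice of the genes or the lack of replicate lists. Neither a difference nor a likeness is read from any of these intervals.

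The 5 genes bound in all 4 lists were Pdia4, Mbtps1, Creb3l2, Ppp1r15a and Slc3a2. Pdia4, a disulfide isomerase of the ER, scored 13.0, 13.2, 24.9 and 16.8 in RT7 EtOH, RT7 4-OHT, RT10 EtOH and RT10 4-OHT, above the upper quartile in each. It was the single bound gene of 8 disulfide isomerases and oxidases. That is 12.5%, where 7.83% of all protein-coding genes had a summit in at least 1 list. Nothing is read from a count of 1. Mbtps1, the site-1 protease that cleaves ATF6, scored 12.2, 3.77, 34.0 and 13.4. Creb3l2, a transcription factor activated by the same proteases, scored 14.2, 5.91, 17.8 and 7.27. Ppp1r15a (GADD34), the phosphatase subunit that reverses eIF2α phosphorylation, scored 11.5, 7.26, 30.0 and 17.0. It was the single bound gene of the 6 grouped as eIF2α, its other kinases and its phosphatase subunits (16.7%, beside the same 7.83%). The Ppp1r15a summits also lay at an end of Plekha4. Slc3a2, a subunit of amino acid transporters, scored 9.42, 5.76, 14.04 and 7.61 for its higher summit, which also lay within 500 bp of the small nucleolar RNA host gene Snhg1.

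Among the 15 other folding chaperones and co-chaperones, 6 had a summit in at least 1 list, where 7.83% of all protein-coding genes did. Manf, which encodes a secreted ER stress protein, scored 14.8 in RT7 EtOH, 19.9 in RT10 EtOH and 3.32 in RT10 4-OHT. Fkbp2, a prolyl isomerase, scored 9.42, 8.23 and 2.88 in the same lists. Neither had a summit in RT7 4-OHT. Canx (2.23), the membrane-bound relative of calreticulin, Hspa13 (3.01) and Calu (4.18) appeared in RT7 EtOH alone, and Dnajb9 (5.84), a co-chaperone of BiP, in RT10 EtOH alone. Past the limit, summits lay beyond the downstream end of Canx, away from its start, at 1450 bp in RT7 4-OHT and 1522 bp in RT10 EtOH. RT7 EtOH also held a summit in that region (score 4.68), 33172 bp from the one counted for Canx. The summits of Fkbp2, Canx and Dnajb9 also lay within 500 bp of an end of a further annotated gene, LOC114841036, Gm46280 and Mir5627. Hyou1, Dnajb11, Dnajc3, Sdf2l1 and Creld2, all known targets of the response, had no summit in any list.

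Summits at genes of ER-associated degradation and translocation scored at most 7.62. Syvn1, the ubiquitin ligase HRD1, scored 3.83 in RT7 and 4.80 in RT10, Vcp, the ATPase that extracts substrates from the ER, 4.68 and 2.2, and Derl3 7.62 in RT10. Of 8 translocation and secretion genes Sec61b alone was bound, with 3.83 and 1.41. That is 12.5% of this group in each EtOH list. Of the 12 degradation genes 16.7% had a summit in RT7 EtOH and 25% in RT10 EtOH. The shares of all protein-coding genes in these lists were 5.31% and 5.95%, and the differences were not tested. In the 4-OHT lists 0 of the 20 genes of these 2 groups had a summit, where 2.73% (RT7) and 3.85% (RT10) of all protein-coding genes did, so that a count of 0 among 20 is near the background. Herpud1, Edem1 and Sel1l had none in any list. At EtOH scores of this size a missing 4-OHT summit was common, as the deciles above show.

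Of the 3 sensors, Eif2ak3 (PERK) scored 9.03 in RT7 EtOH and 2.95 in RT10 EtOH with no 4-OHT summit, Ern1 (IRE1) 5.21 in RT7 EtOH and 5.69 in RT10 4-OHT, and Atf6 had no summit. Among the other transcription factors, Nfe2l2 scored 6.49 in RT7 EtOH, 15.2 in RT10 EtOH and 4.53 in RT10 4-OHT, and Atf3 7.45 in RT7 EtOH alone. Cebpb and Cebpg had none nearer than 62933 bp. Atf5, a further factor of the integrated stress response, had none within the 500 bp limit. In every list it had a summit past the limit, inside the gene and downstream of its start. The distances from the start were 557 bp in RT7 EtOH (score 10.03), 587 bp in RT7 4-OHT (5.06), 557 bp in RT10 EtOH (15.16) and 819 bp in RT10 4-OHT (8.24). Among 12 targets of ATF4 and CHOP, Vegfa (5.57, RT7 EtOH) and Ddit4 (4.93, RT10 EtOH) were bound beside Slc3a2. At least 1 list thus held a summit for 3 of the 12, against 7.83% of all protein-coding genes. Asns, Chac1, Trib3, Sesn2 and Psat1 had no summit within the limit in any list. The nearest to Asns were 1339 bp away in RT7 EtOH (score 7.97), 1026 bp in RT10 EtOH (8.72) and 1331 bp in RT10 4-OHT (12.84). In RT7 4-OHT the nearest was 19349 bp away (3.1).

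**Figure D4:**
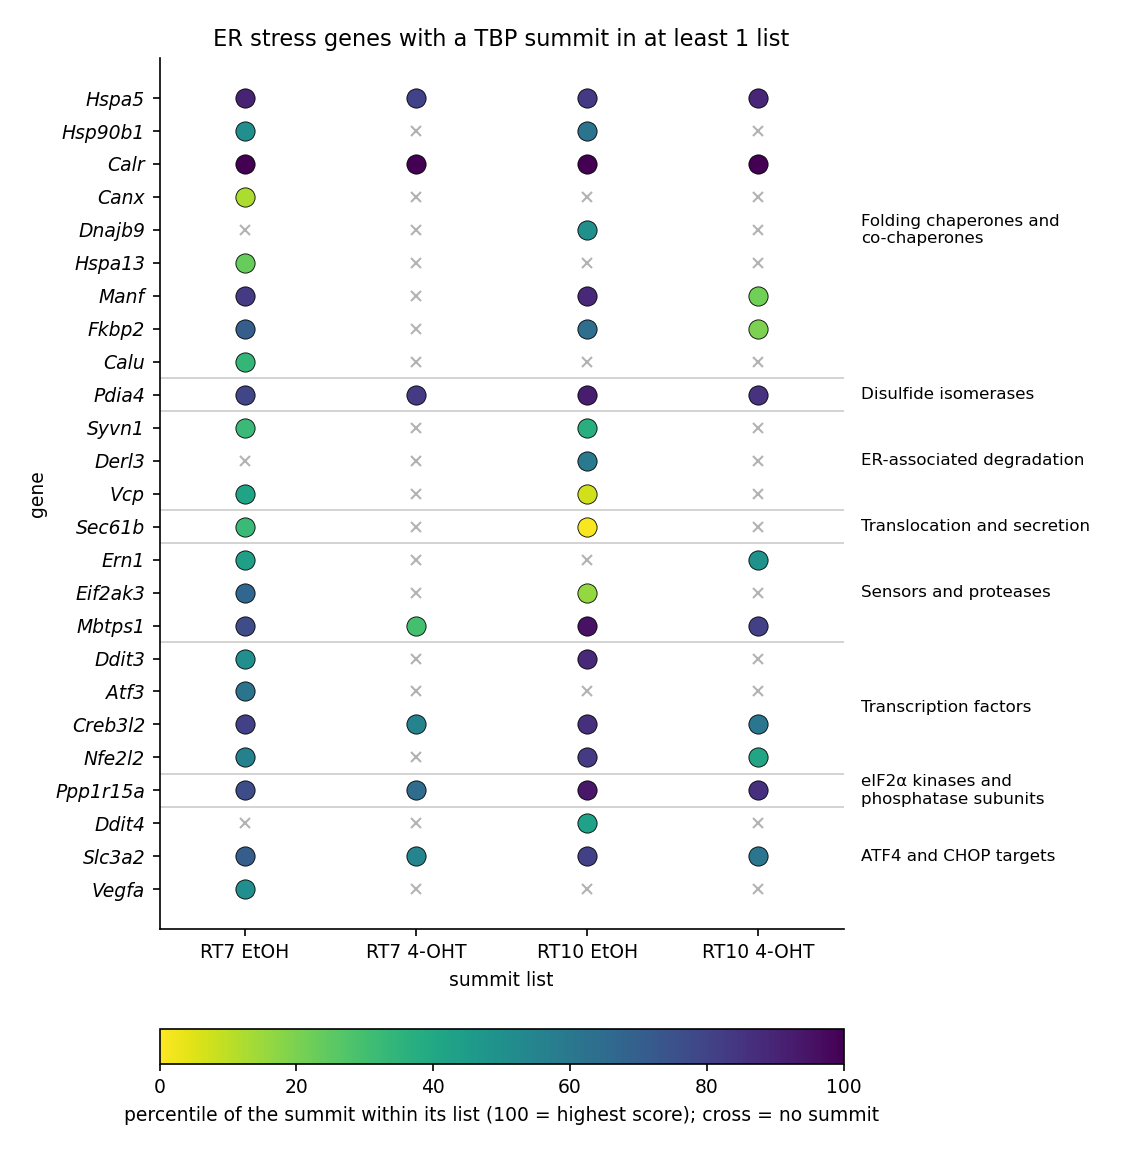
The 25 of 81 ER stress genes with a TBP summit within 500 bp of an end in at least 1 list (rows, grouped by role), with the 4 lists as columns. Colour gives the percentile of the summit within its list, and a cross marks no summit. Filled rows across all 4 columns are Hspa5, Calr, Pdia4, Mbtps1, Creb3l2, Ppp1r15a and Slc3a2.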

How the data were processed

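TBP CUT&RUN summit lists of RT7 and RT10 ES cells were analysed as deposited, with groups taken from the sample titles. cutadapt 4.0, Bowtie2 2.4.4, SAMtools 1.15.1, bedtools, deepTools, MACS2 2.2.7.1 and build mm10 are named in the submitters' processing notes, without roles or parameters. The deposited score is read as the −log10 q-value that MACS2 writes at a summit, since the lowest values were 1.30 to 1.40. It is the authors' value and was used only within a list. Whether the 2 libraries of a group were pooled, and how the yeast spike-in was used, are not given in the sources used here. The number of reads is unknown, and with it the precision of each score.

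Gene positions, strands and promoter sequences came from RefSeq tables of GRCm38.p6, the mm10 assembly. Of the 81 ER stress genes 71 had a promoter sequence. A gene counted as bound with a summit at most 500 bp from one of its ends, and kept when a 4-OHT summit lay within 250 bp of the EtOH summit. All 6 members, every bound gene of the wider list and the 3 genes of most similar pattern per member were named. Members and lists were chosen with earlier results of these data known. With 1 list per group no test was run. Motifs were searched on both strands. Alternatives were other distances, starts only, whole genes, a score minimum of 10 and equal list lengths. Python 3.11.15, NumPy 2.4.6, pandas 2.3.3, SciPy 1.17.1 and matplotlib 3.10.9 were used, and the joins were tested on simulated data.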

Additional observations from a re-analysis of the deposited data

Results flagged for a closer look

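Ern1, the gene of the ER stress sensor IRE1, was the single gene of the 81 whose summit went opposite ways in the 2 lines. It had a summit in RT7 EtOH (score 5.21, 348 bp upstream of the start) and none in RT7 4-OHT. In RT10 it had none in EtOH and one in 4-OHT (score 5.69, 175 bp upstream). The difference was not tested, as each group has 1 list, and both scores lay close to the median of their lists (5.57 and 5.95).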

How the results depend on the processing

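Of 84 alternatives over 12 counts, 69 stayed within 1.5 times the main count. The other 15 gave lower counts, and all came from a 100 bp distance or a score minimum of 10. Within 100 bp of a gene end, the members bound fell to 1 (Calr) in RT7 EtOH, RT7 4-OHT and RT10 EtOH and to 0 in RT10 4-OHT, and of the 81 genes 9 were bound in RT7 EtOH, 6 in RT10 EtOH and 1 in RT10 4-OHT, as most summits lay over 100 bp from the end. With scores of at least 10, 2 members were bound in RT7 EtOH, where Hsp90b1 and Ddit3 drop out. Hsp90b1 drops out of RT10 EtOH as well, which leaves 3 members there and Hsp90b1 bound in no list. Of the 81 genes 7, 3, 10 and 5 were bound in RT7 EtOH, RT7 4-OHT, RT10 EtOH and RT10 4-OHT. Under that minimum 3 of the 81 were kept in RT7 and 5 in RT10, and with partners within 100 bp 6 in RT10. Lists cut to the shortest length kept 4, 2, 4 and 2 members bound, with summits at the tied last score all retained. In RT7 EtOH that last score was the 5.57 of Hsp90b1 and Ddit3, so their place depends on this choice. No paired analysis was possible because the lists carry no replicate numbers, and no replicate could be left out.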

Other observations

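Over the 71 ER stress genes with a promoter sequence, the ER stress response element (CCAAT and CCACG, 9 bases apart), present in 0.141% of all promoters, was found in 10. Shares of all promoters count sequences, 21263 from 17492 protein-coding genes, whereas the ER stress counts are per gene, so the units differ. Of the 23 with a TBP summit in at least 1 list 6 held it, Calr, Hspa5, Hsp90b1, Canx, Syvn1 and Derl3. Of the 48 without a summit 4 did, Creld2, Dnajc3, Ero1b and Pdia6. Among all promoters bound in at least 1 list the share was 0.442%. Calr, Hspa5 and Hsp90b1 were chosen from the summit scores of these lists, so no link between element and summit is read from the counts. The shorter form (ATTGG and CCACG, 1 base apart), present in 0.0517% of all promoters, was found in Herpud1 and Dnajb11, neither of which had a summit. The core of the CEBP-ATF response element, TGATGNAA, found in 3.6% of 21263 promoters of protein-coding genes, was present in 8 of the 71 genes, of which Atf3 alone was bound, and Asns, Chac1, Trib3, Nupr1, Slc7a11, Herpud1 and Txndc5 were not. TATAAA, found in 12.6% of all promoters, was present in 3 of the 23 bound genes, Calr, Ppp1r15a and Vcp, and in 5 of the 48 others. TGACGTGG, the core of the unfolded protein response element, present in 0.705% of all promoters, was found in 2 of the 23 and 3 of the 48.

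The summits at Calr, Hsp90b1, Ddit3, Ppp1r15a, Slc3a2, Sec61b, Creb3l2, Fkbp2, Canx and Dnajb9, 10 of the 25 ER stress genes with a summit, lay within 500 bp of an end of a further annotated gene. Among the 4 bound members 2, Hsp90b1 and Ddit3, share their summit with a protein-coding neighbour, Ttc41 and Mbd6. The share of such summits over all bound protein-coding genes was not computed, so no trait of ER stress genes is read from these counts.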
